A study of Mus musculus with 10 samples.

Results

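The 9 genes described here are regulators of transcription elongation, followed through 5 sorted populations of mouse small-intestinal crypt cells. They are Cdk9 with its cyclin partners Ccnt1 and Ccnt2, the P-TEFb inhibitor genes Hexim1 and Larp7, the related kinases Cdk12 and Cdk13 with their cyclin Ccnk, and Supt5h. The genes were chosen by name, as 9 of the 35006 gene names in each count table, and all 9 were among the 13706 genes that passed the filter on low counts.

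P-TEFb is the kinase complex of CDK9 with cyclin T1 or cyclin T2. It phosphorylates the C-terminal domain of RNA polymerase II, the pausing factor NELF and the SPT5 subunit of DSIF (encoded by Supt5h), and so releases polymerase that has paused downstream of the start site. Much of the P-TEFb in a cell is held inactive in the 7SK ribonucleoprotein, in which HEXIM1 inhibits the kinase and LARP7 binds and stabilises the 7SK RNA. CDK12 and CDK13, each with cyclin K, act later in elongation on the same domain.

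The mice were on the C57BL6/J strain and carried OSCAR, a reporter of CDK9 kinase activity placed in the Rosa26 locus behind an EF1a promoter, with its stop cassette removed in the germ line by Vasa-Cre. OSCAR pairs mCherry with a Venus variant whose fluorescence falls when CDK9 phosphorylates its substrate peptide, so a high Venus to mCherry ratio reads as low CDK9 activity. The second axis of the sort, called EF1a high or low, is the general level of the reporter. Live EpCAM+ cells, 10000 for each library, were labelled P1 (OSCAR low, EF1a low), P2 (OSCAR high, EF1a low), P3 (OSCAR low, EF1a high), P4 (OSCAR medium, EF1a low) and P5 (OSCAR medium, EF1a high), with 2 libraries each. The study's text calls the libraries of a population biological replicates. Ages and sexes, and whether these libraries came from separate mice, were not given in the sources used here, so that p-values measure only the spread between these libraries. The OSCAR axis is a fluorescence ratio of protein, whereas all values below are RNA.

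The libraries held 3857612 to 6485823 counts on genes. The 4 epithelial markers (Epcam, Krt8, Krt18 and Cdh1) were detected in all 10 libraries, at a summed level of 2706 to 5417 TMM-scaled CPM (counts relative to a library total that edgeR adjusts by the trimmed mean of M-values). The P2 libraries stood apart by 6 Paneth cell markers, including the lysozyme gene Lyz1, which summed to 398553 to 561640 CPM, against 19592 to 62845 in P1 and 501 to 10717 in the other 6 libraries. Goblet, tuft and enteroendocrine markers were highest there too, whereas the study's text assigns the secretory cells to the P3 gate. The P2 and P3 labels may thus be exchanged between the deposited libraries and the study's text. However, 6 markers of dividing cells, such as Mki67, go with the labels as they stand, as the study's text proposes that P2 cells are not cycling. They summed to 53.3 to 67.4 CPM in P2 and 716 to 1160 in P3, against 262 to 264 in P1, 561 to 591 in P4 and 1088 to 1753 in P5. The exchange is therefore not settled, and the gate behind every P2 and P3 comparison is in doubt. Gates are given below as the labels have them, no library was renamed, and every result was computed for each. The P3 libraries differed from each other, with 58.6% and 35.5% of counts on mitochondrial genes against 1.02% to 4.99% in the other 8. The P1 libraries had the most enterocyte marker RNA, 19534 to 23310 CPM over 6 genes, and P4 and P5 the most stem cell marker RNA, 4239 to 7101 CPM over 6 genes. In bulk libraries of this kind, fewer cells of a type and less RNA per cell cannot be told apart.

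Across the 5 populations, 2 of the 9 genes passed the test, Hexim1 (adjusted p = 0.00566) and Larp7 (adjusted p = 0.00842), by edgeR's quasi-likelihood test at an adjusted p (Benjamini-Hochberg, over all genes tested) under 0.01. By the same rule 36.3% of all genes tested passed. Ccnt2 (adjusted p = 0.0171) and Supt5h (adjusted p = 0.0477) came next, followed by Ccnt1 (0.118), Cdk13 (0.163), Ccnk (0.265), Cdk12 (0.876) and Cdk9 (0.972). Cdk9, the kinase whose activity the OSCAR axis reads, had the highest adjusted p of the 9. Over 18 other settings of the fit, Hexim1 passed in 12 and Larp7 in 7. With total counts in place of TMM, Ccnk passed (0.00802) beside Hexim1 (0.00846), and Larp7 did not (0.0128). Without P1 replicate 2 the adjusted p of Hexim1 was 0.0674, and without P2 replicate 2 that of Larp7 was 0.0723.

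**Figure D1:**
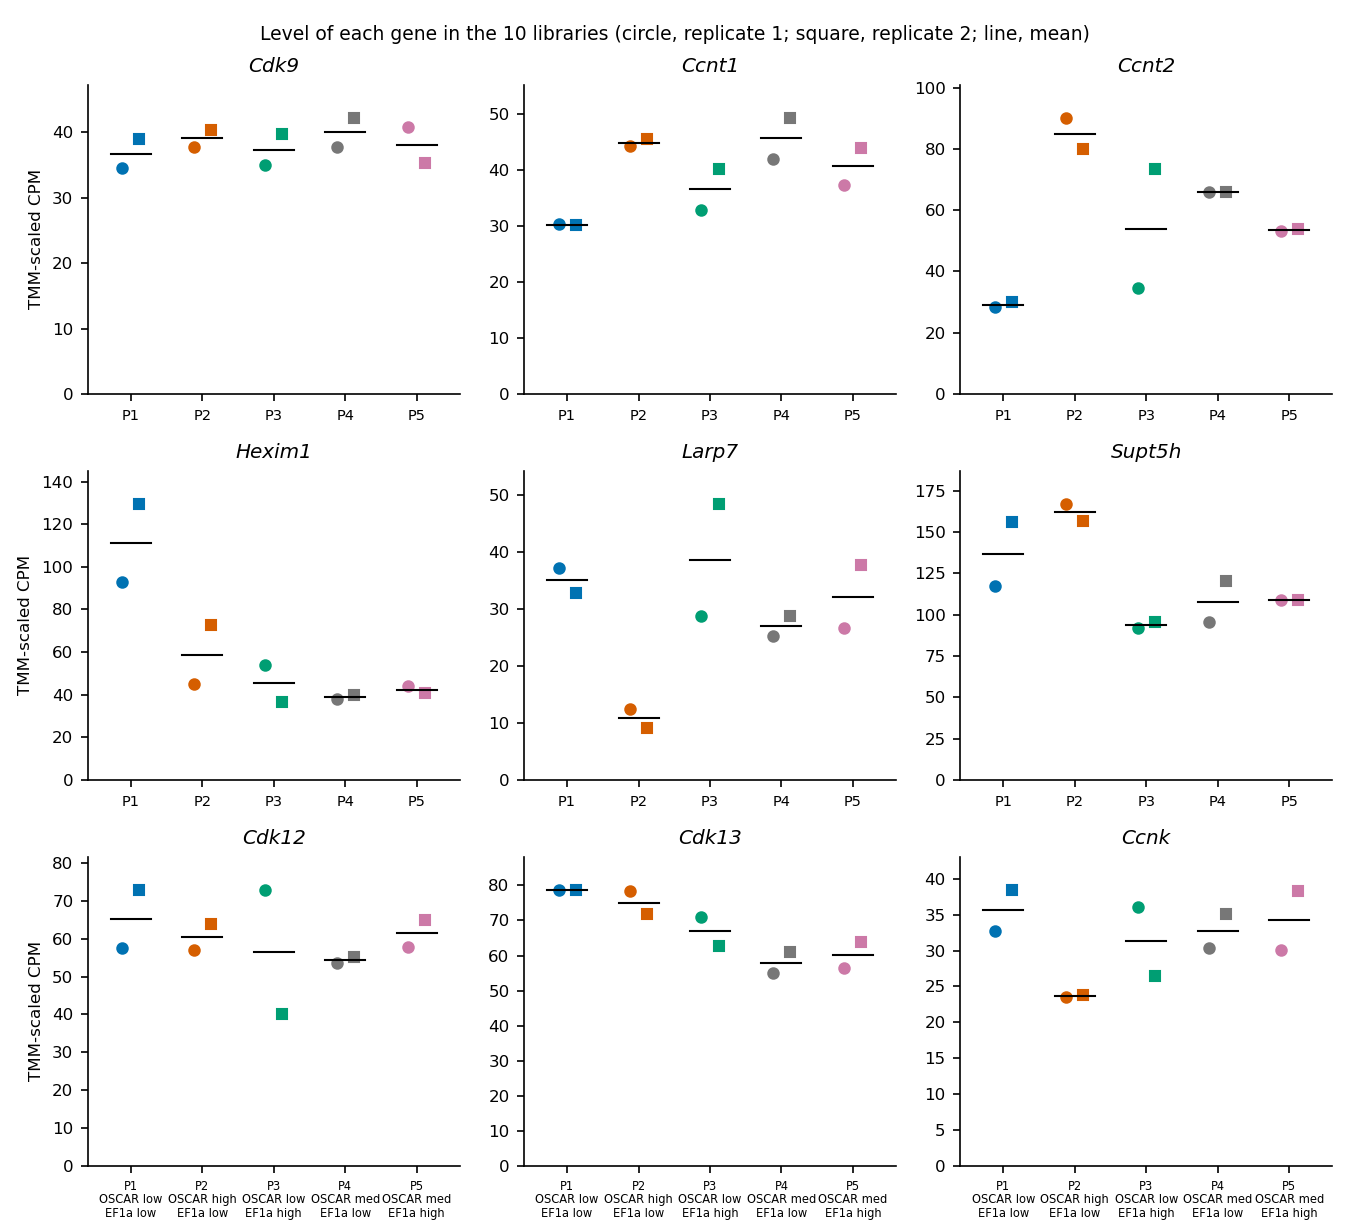
Level of each of the 9 genes, in TMM-scaled CPM on a linear axis from 0, in the 2 libraries of each population, with a line at the mean of the 2 libraries. Cdk9 lies between 34.6 and 42.3 CPM in all 10 libraries, Hexim1 is highest in P1 (92.8 and 130 CPM) and Larp7 is lowest in P2 (12.5 and 9.14 CPM).

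Cdk9, on chr2:32561304-32568596 of the mm9 build (minus strand), was nearly level. It stood at 34.6 and 39.0 CPM in P1, against 37.8 and 40.4 for P2, 35.0 and 39.7 for P3, 37.8 and 42.3 for P4 and 40.9 and 35.3 for P5. In none of the 10 pairs of populations were the libraries of Cdk9 without overlap, whereas 31.3% to 78.0% of genes were without overlap in a pair. Its highest library was 1.22 times the lowest. Only 0.0365% of the genes tested had a smaller ratio, and the median ratio was 4.80 over all genes tested and 3.29 over the 6495 genes with a mean level of 20 to 200 CPM. The fold change of P2 over P1 was 0.09 on the log2 scale (95% interval -0.35 to 0.53, adjusted p = 0.733), and that of P2 over P4 was -0.03 (-0.47 to 0.40, adjusted p = 0.919). Differences within these intervals remain compatible with the data, which held 66 to 426 Cdk9 reads in a library. AL772271.1 and AL772271.4 overlap the exons of Cdk9 on the same strand. Neither had a read, but reads wholly within a shared stretch are counted for no gene and are thus also missing from Cdk9.

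This evenness depended on how libraries were scaled. TMM sets the bulk of genes level between libraries, and scaling by total counts instead moved the median of all genes by -0.44 in P2 minus P1, by -0.69 in P1 minus P4 and by -1.12 in P2 minus P4. On that scale the Cdk9 difference became -0.36 in P2 minus P1 (adjusted p = 0.486), -0.82 in P1 minus P4 (adjusted p = 0.105) and -1.17 in P2 minus P4 (adjusted p = 0.0275). As CPM of the plain totals, without TMM, Cdk9 gave 25.9 and 28.5 in P2, 32.7 and 37.0 in P1 and 57.0 and 65.7 in P4. It gave 17.1 and 38.1 in P3 and 55.5 and 52.3 in P5. The narrow range of Cdk9 given above thus holds on the TMM scale only. A change of scaling moves all genes of a comparison by nearly the same amount, so these shifts are not particular to Cdk9. Fold changes below are on the TMM scale, relative to the bulk of genes, unless total counts are named.

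The cyclin T genes were lowest in P1. Ccnt1, on chr15:98369120-98401354 (minus strand), was at 30.3 and 30.1 CPM in P1, against 44.2 and 45.5 for P2, 32.9 and 40.2 for P3, 41.9 and 49.3 for P4 and 37.4 and 43.8 for P5. Both P1 libraries lay below all 8 others, as they did for 13.9% of all genes tested. The fold change was 0.57 on the log2 scale in P2 minus P1 (SE 0.20, adjusted p = 0.0415) and -0.59 in P1 minus P4 (SE 0.20, adjusted p = 0.0373), neither of which passed, and -0.02 in P2 minus P4 (95% interval -0.47 to 0.42). With total counts these became 0.12 (adjusted p = 0.829), -1.29 (0.0269) and -1.16 (0.0336). A gene model on the opposite strand, 9330020H09Rik, overlaps Ccnt1 and had at most 8 reads, with reads of the shared stretch again counted for neither.

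Ccnt2, on chr1:129670741-129704638 (plus strand), varied more widely. It gave 28.3 and 30.1 CPM in P1, against 90.2 and 79.8 for P2, 34.5 and 73.5 for P3, 66.0 and 66.1 for P4 and 53.2 and 54.0 for P5. Both P2 libraries were above all the others, as for 20.2% of all genes tested, and the 2 P3 libraries lay far apart, with replicate 1 close to P1 and replicate 2 above P4.

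Ccnt2 and Larp7 were the 2 members called in P2 minus P1 (29.1% of all genes tested were), by its labels the comparison of high with low OSCAR at low EF1a. Ccnt2 was higher in P2 by 1.54 on the log2 scale (SE 0.30, 95% interval 0.86 to 2.22, adjusted p = 0.00312), and 13.9% of all genes tested were called in that direction. The call was lost without P1 replicate 1 (adjusted p = 0.0269), P1 replicate 2 (0.0198), P2 replicate 1 (0.0204) or P2 replicate 2 (0.0104), where the difference stayed between 1.46 and 1.64, and with total counts (1.09, adjusted p = 0.103). Over the 18 other settings, the adjusted p ran from 6.9e-07 to 0.103. In P1 minus P4 the Ccnt2 difference was -1.18 (SE 0.30, adjusted p = 0.0121), just short of the threshold, with an adjusted p of 0.000953 without both P3 libraries and of 7.25e-05 to 0.0703 over all other settings. Between P2 and P4 the difference was 0.36 (adjusted p = 0.386), and it turned to -0.77 with total counts.

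The P-TEFb inhibitors varied most. Hexim1 is a single-exon gene on chr11:102977639-102981039 (plus strand), and Larp7 lies on chr3:127239872-127256266 (minus strand). As the genes called across the populations, they are shown with their promoters, beside that of the level gene Cdk9. Each sequence is the RefSeq window of 300 bases, 250 before to 50 after the annotated start, in the GRCm38.p6 build, which is not the build of the count tables. The windows are chr11:103116075-103116374 (plus strand) for Hexim1, chr3:127553300-127553599 (minus strand) for Larp7 and chr2:32712735-32713034 (minus strand) for Cdk9. Capitals mark matches on either strand to a TATA box (TATAAA or TATATA), a cyclic AMP response element (CRE, TGACGTCA) and a CCAAT box (CCAAT).
Hexim1: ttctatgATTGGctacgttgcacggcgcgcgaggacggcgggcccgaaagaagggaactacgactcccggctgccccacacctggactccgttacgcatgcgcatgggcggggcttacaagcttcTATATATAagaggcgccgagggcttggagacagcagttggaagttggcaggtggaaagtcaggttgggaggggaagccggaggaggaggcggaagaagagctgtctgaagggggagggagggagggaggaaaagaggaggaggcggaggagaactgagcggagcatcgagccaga
Larp7: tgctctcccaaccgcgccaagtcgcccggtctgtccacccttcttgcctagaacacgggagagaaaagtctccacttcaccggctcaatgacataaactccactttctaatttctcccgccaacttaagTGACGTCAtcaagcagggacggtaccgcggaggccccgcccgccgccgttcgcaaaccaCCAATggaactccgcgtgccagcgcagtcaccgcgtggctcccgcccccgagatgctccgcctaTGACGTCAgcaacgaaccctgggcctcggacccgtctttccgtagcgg
Cdk9: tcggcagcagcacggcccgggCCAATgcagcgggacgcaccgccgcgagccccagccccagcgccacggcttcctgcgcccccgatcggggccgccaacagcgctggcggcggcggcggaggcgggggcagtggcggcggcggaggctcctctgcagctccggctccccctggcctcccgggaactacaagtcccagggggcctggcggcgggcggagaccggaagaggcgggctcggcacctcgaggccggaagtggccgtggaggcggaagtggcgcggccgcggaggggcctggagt

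Of the 9 promoters, all of which were in the RefSeq table, the Hexim1 window alone matched the TATA box letters, with 2 overlapping matches that begin at positions -125 and -123 from the start. Those letters occurred in 17.1% of 32851 promoter windows. The CRE letters were in the Larp7 window alone, at positions -121 and 3, and in 1.79% of all windows. CCAAT was in 5 of the 9 windows against 37.4% of all, GGGCGG (the GC box) in 9 of 9 against 35.7%, and CCGGAAG (the ETS core) in 3 of 9 against 8.86%. The motifs were picked after the sequences were seen, and a match of letters is not a bound site.

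Hexim1 was highest in P1. Its level was 92.8 and 130 CPM in P1, against 44.8 and 72.7 for P2, 54.2 and 36.6 for P3, 38.2 and 40.1 for P4 and 43.9 and 40.8 for P5. Both P1 libraries were above the other 8, as for 20.9% of all genes tested, and P2 replicate 2 was the highest of the 8. In P1 minus P4, low against medium OSCAR at low EF1a, Hexim1 was the only member called, higher by 1.51 (SE 0.29, 95% interval 0.86 to 2.15, adjusted p = 0.00368), where 23.4% of all genes tested were called and 14% in that direction. In P1 minus P5 it was again the only one, higher by 1.39 (SE 0.28, adjusted p = 0.00589), beside 19.8% of all genes. In P3 minus P1, high against low EF1a at low OSCAR, it was lower in P3 (log2 fold change -1.31, SE 0.29, adjusted p = 0.00954), beside 15.6% of all genes. Between P2 and P1 the difference was -0.92 (SE 0.28, adjusted p = 0.0259), which did not pass, whereas with total counts it was -1.36 and did (adjusted p = 0.00961). Between P2 and P4 it was 0.59 (adjusted p = 0.155), or -0.55 with total counts (adjusted p = 0.200), and neither passed.

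These Hexim1 calls rested on every library compared, except P3 replicate 1 in P3 minus P1. The P1 minus P4 call was lost without P1 replicate 1 (adjusted p = 0.0102), P1 replicate 2 (0.0282), P4 replicate 1 (0.0314) or P4 replicate 2 (0.0321), where the fold change ran from 1.21 to 1.73, and with total counts (0.81, adjusted p = 0.0787). For P3 minus P1, leaving out either P1 library, P3 replicate 2 or any P4 or P5 library ended the call, with the highest adjusted p, 0.0630, without P1 replicate 2. For P1 minus P5, leaving out any library of P1, P4 or P5 did so, with the highest, 0.0521, without P5 replicate 2, and total counts gave 0.0883. The libraries with most Hexim1 RNA were also those with most enterocyte marker RNA, and their 5 immune markers (Ptprc, Cd3e, Cd3g, Cd8a and Cd79a) summed to 75.3 to 311 CPM, against 0.369 to 63.2 in the other 8. The part of these cells in the Hexim1 difference was not tested.

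Larp7 was lowest in P2. It was at 37.1 and 32.8 CPM in P1, against 12.5 and 9.14 for P2, 28.7 and 48.4 for P3, 25.2 and 28.8 for P4 and 26.6 and 37.6 for P5. The P2 values rested on 41 reads in each of the 2 libraries, and both lay below all the others, as for 15% of all genes tested. Larp7 was lower in P2 than in P1 (log2 fold change -1.70, SE 0.32, 95% interval -2.43 to -0.97, adjusted p = 0.00281), and 15.2% of all genes were called in that direction. It was also the only member called in P2 minus P3 (-1.86, SE 0.33, adjusted p = 0.00248, beside 21% of all genes), in P2 minus P5 (-1.58, SE 0.32, adjusted p = 0.00634, beside 15.9%) and in P2 minus the average of the other 4 populations (-1.62, SE 0.28, adjusted p = 0.00167, beside 27%). These comparisons share the P2 libraries. Without P2 replicate 2 the call was lost in P2 minus P3 (adjusted p = 0.0227), in P2 minus P5 (0.0508) and against the average (0.0258), and without P2 replicate 1 it was lost too (0.0107, 0.0212 and 0.0105). It was lost as well in P2 minus P3 without P3 replicate 2 (0.0111) or with total counts (-2.03, adjusted p = 0.0163), and in P2 minus P5 without P1 replicate 1 or any P4 or P5 library (0.0105 to 0.0476).

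Between P2 and P4, high and medium OSCAR at low EF1a, no member passed edgeR's test, beside 14.3% of all genes tested. An unadjusted p under 0.05 was found for 2 members and for 5560 of the 13706 genes tested. Larp7 was the closest, at -1.33 (SE 0.32, adjusted p = 0.0143), and DESeq2 called this 1 member (adjusted p = 0.00608), beside 3192 of all genes. Its adjusted p was under 0.01 in 6 of 18 other settings and ran from 0.000366 to 0.0957, with total counts at -2.46 (adjusted p = 0.00437). Without P3 replicate 1 it was 0.00495 and without P3 replicate 2 it was 0.00494, which are libraries of neither population. The P2 minus P1 call of Larp7 was lost without P1 replicate 1 (adjusted p = 0.0165), P1 replicate 2 (0.0104), P2 replicate 1 (0.0127) or P2 replicate 2 (0.0256), with the difference between -1.92 and -1.47. The P2 libraries were also those with the highest Paneth marker RNA, and the part of these cells in the Larp7 difference was not tested.

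**Figure D2:**
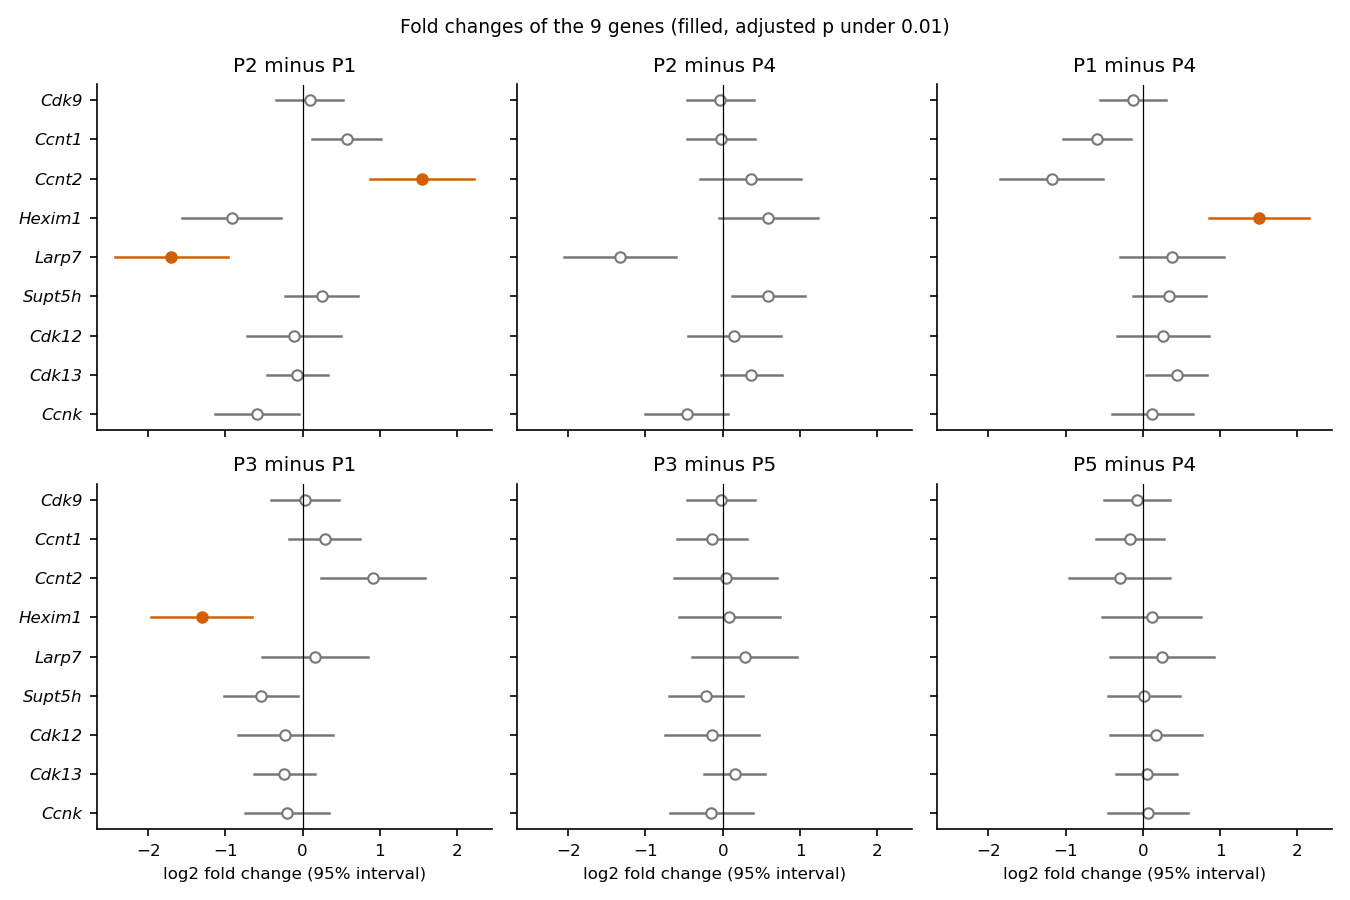
Log2 fold changes (TMM scale) of the 9 genes with 95% intervals in the 6 comparisons that by their labels differ in a single gate, with filled points for an adjusted p under 0.01. Filled points are Ccnt2 and Larp7 in P2 minus P1 (1.54 and -1.70) and Hexim1 in P1 minus P4 (1.51) and in P3 minus P1 (-1.31), and Cdk9 lies near 0 in all 6.

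Supt5h, on chr7:29099917-29123738 (minus strand), encodes SPT5 and was the most abundant of the 9 per kilobase of exon (mean 34.7 CPM per kb). It was at 117 and 156 CPM in P1, against 167 and 157 for P2, 91.8 and 95.5 for P3, 95.3 and 120 for P4 and 109 and 109 for P5. Both P2 libraries were above the other 8 by a margin that was very small against P1 replicate 2, as for 20.2% of all genes tested. The difference was 0.79 in P2 minus P3 (SE 0.21, adjusted p = 0.0177), 0.59 in P2 minus P4 (SE 0.21, adjusted p = 0.0638) and 0.24 in P2 minus P1 (SE 0.21, adjusted p = 0.363), and none passed. With total counts the direction turned to -0.55 in P2 minus P4 and -0.20 in P2 minus P1.

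The later-acting kinases varied little. Cdk12, on chr11:98064373-98139818 (plus strand), was at 57.4 and 72.9 CPM in P1, against 57.0 and 63.8 for P2, 72.7 and 40.2 for P3, 53.6 and 55.3 for P4 and 57.8 and 65.0 for P5. The 2 P3 libraries alone nearly spanned the range of all 10. Cdk13, on chr13:17807796-17896931 (minus strand), ran from 54.9 to 78.8 CPM, a ratio of 1.43 that 0.693% of all genes tested undercut. Its order was P1, P2, P3, P5 and P4, with 0.44 in P1 minus P4 (SE 0.17, adjusted p = 0.0690), which turned to -0.25 with total counts. Ccnk, the cyclin K gene on chr12:109424580-109441569 (plus strand), was lowest in P2, at 23.5 and 23.9 CPM against 26.4 to 38.5 in the other 8 libraries, a place that both P2 libraries had for 15% of all genes tested. The Ccnk difference was -0.59 in P2 minus P1 (SE 0.24, adjusted p = 0.0712) and -0.47 in P2 minus P4 (SE 0.24, adjusted p = 0.180), and neither passed. With total counts Ccnk was called in P2 minus P4 (-1.60, adjusted p = 0.00506), in P2 minus P5 (-1.57, adjusted p = 0.00580) and in P2 minus the average of the others (-1.15, adjusted p = 0.00974), and not in P2 minus P1 (-1.03, adjusted p = 0.0369). Reads were 134 to 616 for Cdk13 and 68 to 362 for Ccnk.

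The effect of the EF1a gate on the members was not detectable at medium OSCAR. In P5 minus P4, no member passed edgeR's test, none had an unadjusted p under 0.05 and DESeq2 called none, and by edgeR 0% of all genes passed. These counts of members were also 0 in P3 minus P5, low against medium OSCAR at high EF1a, and in P3 minus P4, again beside 0% of all genes. Of all genes, 350 had an unadjusted p under 0.05 in P5 minus P4, 1587 in P3 minus P5 and 2079 in P3 minus P4. DESeq2 called 30, 40 and 121 genes in these comparisons. The 95% interval of Cdk9 in P5 minus P4 was -0.50 to 0.35. In P3 minus the average of the others no member passed, beside 2.11% of all genes. There 2 members had an unadjusted p under 0.05, as did 4216 of the 13706 genes tested. DESeq2 called none of the members there, against 1289 of all genes. At low OSCAR the EF1a gate went with the Hexim1 difference above and a Ccnt2 difference of 0.91 (SE 0.30, adjusted p = 0.0427), which did not pass. Ccnt2 in P3 minus P1 ran from 0.27 without P3 replicate 2 to 1.34 without P3 replicate 1.

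Whether the EF1a effect differed between low and medium OSCAR was tested directly as an interaction. No member passed edgeR's test, beside 0.81% of all genes. An unadjusted p under 0.05 was found for 2 members and for 4655 of the 13706 genes tested. DESeq2 called 1 member, Hexim1, beside 2053 of all genes. By edgeR the difference of effects was -1.42 for Hexim1 (SE 0.40, 95% interval -2.33 to -0.51, adjusted p = 0.0424) and 1.21 for Ccnt2 (SE 0.42, adjusted p = 0.0734). For Hexim1 the adjusted p lay between 0.00228 and 0.131 over 17 other settings, and 2 of them were under 0.01. By edgeR at this threshold, the Hexim1 call in P3 minus P1 and its absence in P5 minus P4 are thus not shown to differ. DESeq2 and the fit without the filter did call the difference.

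Ratios between members within a library do not depend on how libraries are scaled, and were formed from CPM per kilobase of exon. They are given as values, with no test. Hexim1 stood at 3.64 and 4.51 times Cdk9 in P1, 1.61 and 2.44 in P2, 1.25 to 2.1 in P3, 1.29 to 1.37 in P4 and 1.45 to 1.57 in P5. Both P1 libraries were thus above all others in Hexim1 RNA per Cdk9 RNA. The Larp7 to Cdk9 ratio was 0.811 and 0.556 in P2 and at least 1.59 in each other library. The Hexim1 to Larp7 ratio was 1.38 and 2.19 in P1 and 1.98 and 4.40 in P2, and between 0.418 and 1.04 in the other 6. In P1 that came with more Hexim1 and in P2 with less Larp7.

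**Figure D3:**
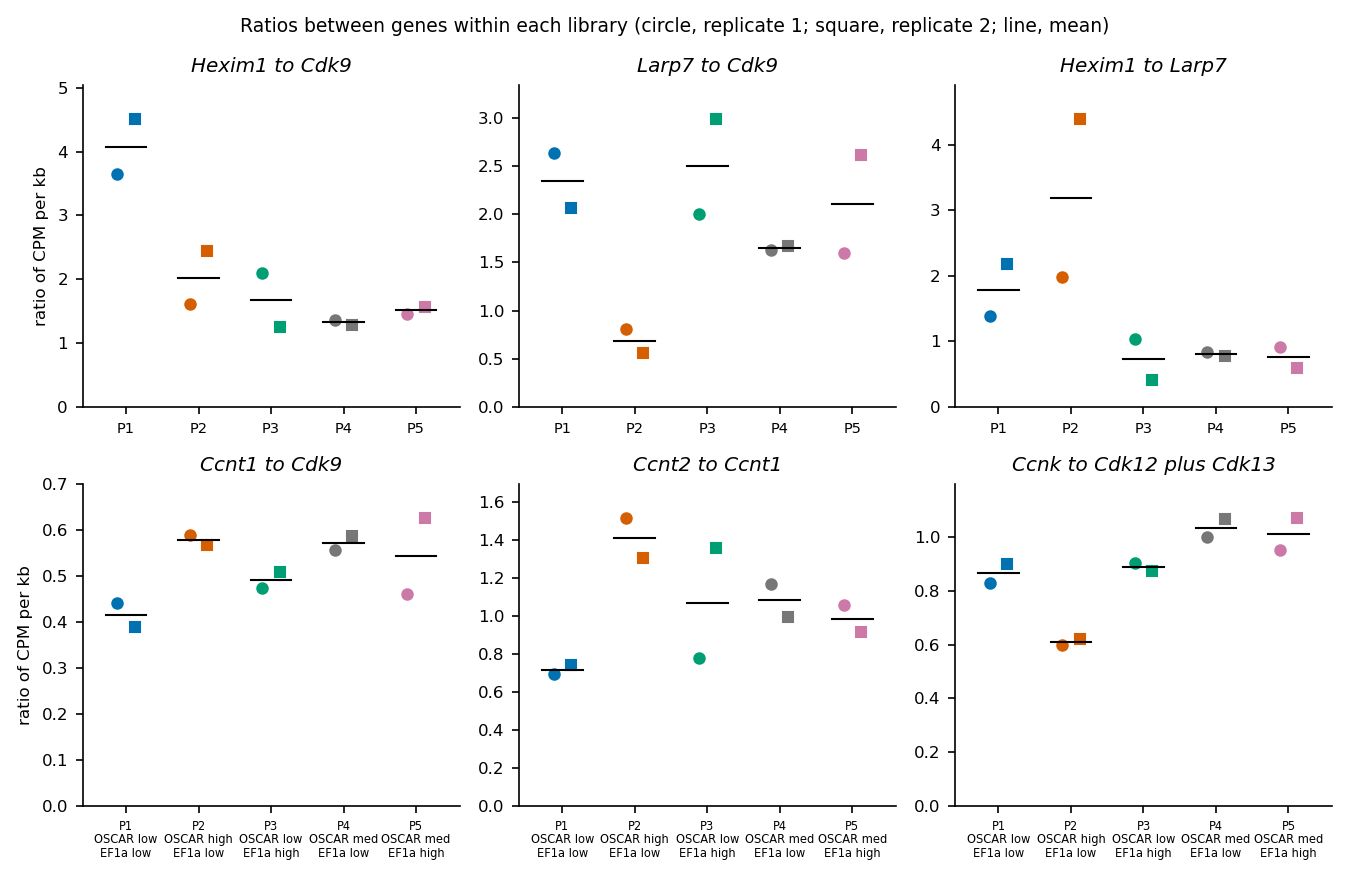
Ratios of CPM per kilobase between members within each library, on linear axes from 0, with a line at the mean of the 2 libraries of a population. The Hexim1 to Cdk9 ratio is highest in P1 (3.64 and 4.51), the Larp7 to Cdk9 ratio is lowest in P2 (0.811 and 0.556), and cyclin K to its 2 kinases is lowest in P2 (0.598 and 0.622).

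The balance of the cyclins differed as well. The Ccnt1 to Cdk9 ratio ran from 0.389 to 0.442 in P1 and from 0.460 to 0.626 in the other 8 libraries. The Ccnt2 to Ccnt1 ratio was 0.692 and 0.742 in P1 and 1.30 and 1.51 in P2, so that cyclin T2 RNA was the less abundant per kilobase in P1 and the more abundant in P2. The P3 libraries fell on either side, at 0.778 and 1.36. The ratio of Ccnk to the sum of Cdk12 and Cdk13 was 0.598 to 0.622 in P2 and 0.830 to 1.07 elsewhere, whereas that of Cdk12 to Cdk13 ran from 0.386 in P3 replicate 2 to 0.618 in P5 replicate 1.

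Per kilobase of exon, the mean level over the 10 libraries fell from Supt5h through Hexim1 (17.5 CPM per kb), Larp7 (15.3), Ccnk (12.8), Cdk13 (9.57), Cdk9 (8.30), Cdk12 (5.08) and Ccnt2 (4.66) to Ccnt1 (4.32). These values divide by all annotated exon bases of a gene, which for Ccnt2 (12345 bases) and Cdk12 (11730 bases) may include exons not used in these cells. The ratio of highest to lowest library was 1.64 for Ccnt1, 1.64 for Ccnk, 1.81 for Cdk12, 1.82 for Supt5h, 3.19 for Ccnt2, 3.54 for Hexim1 and 5.29 for Larp7. Only Larp7 was thus above the median of all genes tested, 4.80. Larp7 and Hexim1 were above 3.29, the median of the 6495 genes with a mean level of 20 to 200 CPM.

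The members did not move as a block across the 10 libraries. The highest correlation between members was that of Ccnt1 with Ccnt2 (Pearson r = 0.897 on log2 CPM), and Hexim1 went with Cdk13 (r = 0.737) and against Ccnt1 (r = -0.70). Cdk9 had its highest r with Ccnt2 (0.526). These correlations share libraries, scaling and replicate pairs and are given as descriptions.

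The genes most like a member over the 10 libraries, by the same Pearson r, were listed for Cdk9, Ccnt1 and Hexim1. For Cdk9 they were A930005I04Rik (0.913), Ercc1 (0.831), AC027184.1 (0.797), Gm5595 (0.797) and 9530082P21Rik (0.791), all with a mean of at most 6.74 CPM. For Ccnt1 they were Zmym4 (0.974), Azi1 (0.962), Nmt2 (0.951), Socs2 (0.95) and Zc3h7b (0.949). For Hexim1 they were the linker histone gene Hist1h1c (0.994), Mavs (0.985), Plekhb2 (0.985), Tsc22d4 (0.982) and Epn1 (0.981), each with its highest mean in P1 of the 3 EF1a low populations, such as 190 CPM for Hist1h1c in P1 against 64.8 in P2 and 22.9 in P4. The list for Cdk9 orders deviations within its 1.22-fold range.

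The members were set beside 49 other genes of elongation, listed by role, of which 47 were tested. Aff3 had no read and Eaf2 at most 7. Across the populations 15 of the 47 passed, beside the 36.3% of all genes. In P2 minus P1, 10 passed (29.1% of all genes did), with 2 higher and 8 lower in P2, and the median log2 fold change was -0.20 against 0.01 over all genes. In P1 minus P4, 11 passed (23.4% of all genes), with 9 higher and 2 lower in P1, and the median was 0.52 against -0.06. In P2 minus P4, 4 passed (14.3% of all genes), all higher in P2, with a median of 0.05, and with total counts 8 passed, of which 7 were lower. In P3 minus P1, 10 passed (15.6% of all genes), with 3 higher and 7 lower in P3. In P5 minus P4 and P3 minus P5 edgeR called none, of these or of all genes tested, where 350 and 1587 of all genes had an unadjusted p under 0.05 and DESeq2 called 30 and 40 genes.

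With total counts these other calls became 5 in P2 minus P1 (all lower), 5 in P1 minus P4 (2 higher and 3 lower) and 5 in P3 minus P1 (all lower), so the directions of the list depend on the scaling. Calls of regulators and calls over all genes both moved when single libraries were left out, so neither is a trait of this list. Without P4 replicate 1, the regulators had a median log2 fold change of 0.41 in P1 minus P4 and -0.01 in P2 minus P4. Without P4 replicate 2 these medians were 0.47 and 0.18. Without P1 replicate 1, the median was -0.30 in P2 minus P1 and -0.26 in P3 minus P1. Without P1 replicate 2 it was -0.10 and -0.19.

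**Figure D4:**
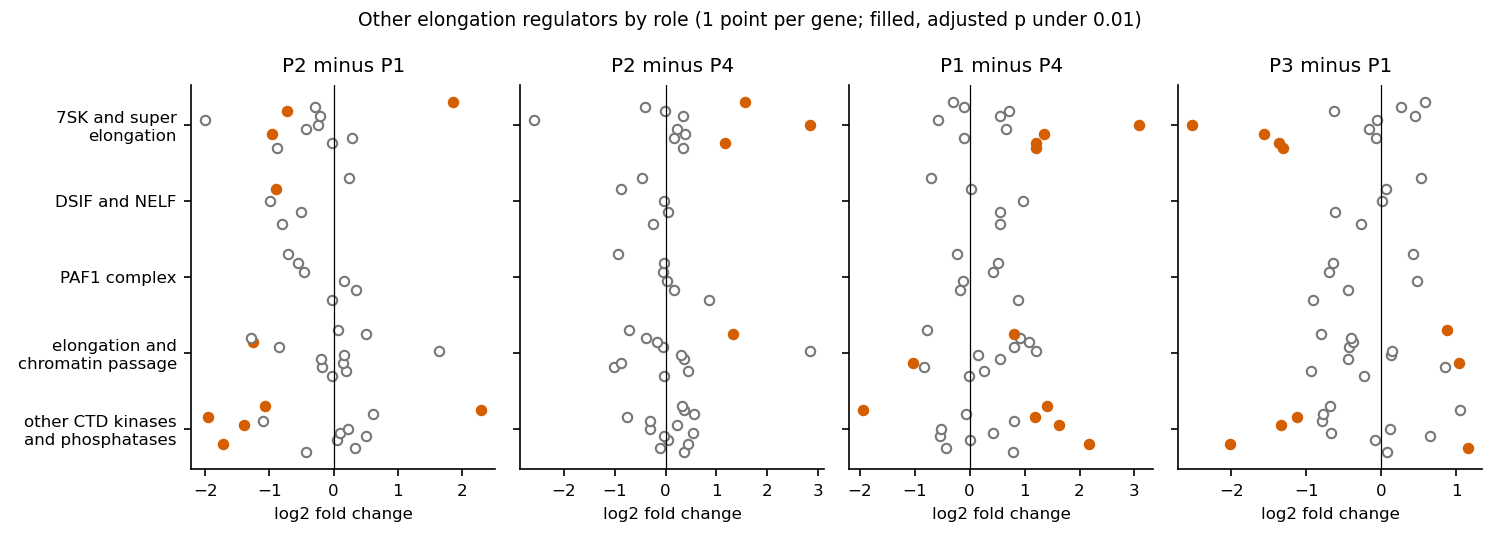
Log2 fold changes (TMM scale) of the 47 other elongation regulators tested, by role, in 4 comparisons, with 1 point per gene and filled points for an adjusted p under 0.01. Ell2 is the filled point farthest to the right in P2 minus P4 (2.85) and in P1 minus P4 (3.09), and no gene of the PAF1 complex is filled in these 4 comparisons.

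The partners of P-TEFb in the 7SK and super elongation complexes included the largest of the called differences. Ell2, an elongation factor of the super elongation complex, was at 208 and 180 CPM in P1 and 173 and 157 in P2, against 16.4 to 53.6 in the other 6 libraries. It was higher by 2.85 in P2 minus P4 (SE 0.44, adjusted p = 0.0021) and by 3.09 in P1 minus P4 (SE 0.44, adjusted p = 0.00137), and lower in P3 minus P1 (log2 fold change -2.52, adjusted p = 0.00380). Mllt3, which reads acylated histones for the same complex, was at 79.6 and 99.7 CPM in P2 and 19.2 to 40.3 elsewhere (1.87 in P2 minus P1, adjusted p = 0.000588, and 1.57 in P2 minus P4, adjusted p = 0.00214). Aff4, its scaffold, named here after its values were seen, was 1.18 higher in P2 minus P4 (adjusted p = 0.00235). Eaf1, an ELL-associated factor, was lower in P3 than in P1 (-1.56, adjusted p = 0.00205). With total counts, Ell2 kept an adjusted p of 0.00230 in P2 minus P4, whereas Mllt3 was at 0.43 (adjusted p = 0.332) and Aff4 at 0.042 (adjusted p = 0.921) there. Mllt3 in P2 minus P1 was then at 1.42 (adjusted p = 0.0107).

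None of the 6 PAF1 complex genes passed across the populations or in the 6 comparisons that differ in a single gate. In P2 minus P3, however, Ctr9 was higher in P2 by 0.80 (adjusted p = 0.00829) and Wdr61 was lower (log2 fold change -1.13, adjusted p = 0.00397), and Wdr61 was also lower in P2 than the average of the others (-0.90, adjusted p = 0.00381). Of the 5 genes of DSIF and NELF, Th1l (Nelfcd) was called across the populations (adjusted p = 0.00994), and it was lower in P2 minus P1 (-0.90, adjusted p = 0.00660), P2 minus P3 (-0.96, adjusted p = 0.00650), P2 minus P5 (-1.14, adjusted p = 0.00337) and P2 minus the average (-0.97, adjusted p = 0.00187). With total counts Th1l was at -1.34 in P2 minus P1 (adjusted p = 0.0192). Ctr9, Wdr61 and Th1l were named after their values were seen. Among the 12 genes that help polymerase move through the template and chromatin, Tceb3 (Eloa, the elongin A gene) was higher in P2 than in P4 by 1.33 (adjusted p = 0.00174), and by 0.19 with total counts (adjusted p = 0.693). Supt16h, a subunit of the histone chaperone FACT, was lower in P1 than in P4 (log2 fold change -1.03, adjusted p = 0.00507) and higher in P3 than in P1 by 1.04 (adjusted p = 0.00691), or by 0.67 with total counts (adjusted p = 0.204). Wdr61, Th1l, Tceb3 and Supt16h overlap gene models on the opposite strand. As counting was without strand, reads wholly within a shared stretch were set aside as ambiguous and count for neither gene. Ambiguous reads were 0.425% to 1.39% of all rows over the 10 libraries.

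Other kinases and phosphatases of the polymerase C-terminal domain held 5 of the 10 calls in P2 minus P1, from 13 genes, beside the 29.1% of all genes called there. Cdk11b, a kinase of transcription and splicing, was at 355 and 338 CPM in P1 and 67.8 to 135 in the other 8 libraries (-1.73 in P2 minus P1, adjusted p = 0.00119, 2.17 in P1 minus P4, adjusted p = 0.00104, and -2.02 in P3 minus P1, adjusted p = 0.00175). The small phosphatase genes Ctdspl (-1.95, adjusted p = 0.000318) and Ctdsp1 (-1.39, adjusted p = 0.00206) were also lower in P2 than in P1, and Ctdsp1 was higher in P1 than in P4 by 1.62 (adjusted p = 0.00169), or by 0.93 with total counts (adjusted p = 0.0443). Rpap2, another phosphatase of the domain, went the other way, at 2.71 and 2.01 CPM in P1 and 13.7 and 9.81 in P2 (2.30, adjusted p = 0.00201, or 1.86 with total counts, adjusted p = 0.0135), with -1.94 in P1 minus P4 (adjusted p = 0.00512). Ccnh, the cyclin of the CDK7 kinase, was higher in P3 than in P1 by 1.16 (adjusted p = 0.00978), or by 0.74 with total counts (adjusted p = 0.177). Rpap2 and Ccnh also overlap genes on the opposite strand.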

How the data were processed

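RNA-seq counts per gene were deposited for 10 libraries. Per the labels and the methods, the authors aligned reads to mm9 with TopHat (TopHat2 2.1.0, with Bowtie) and counted them with HTSeq 0.11.2 over exons, without strand and without reads that map to several places; these counts were not normalized. No other column was used. A row without a name (at most 0.000596% of counts) and 206 rRNA gene names were left out. Counts were tested with edgeR 4.0.16 (filterByExpr, TMM, glmQLFit and glmQLFTest, 10 libraries, 5 residual degrees of freedom) and adjusted by Benjamini-Hochberg over 13706 genes. A gene was called at an adjusted p under 0.01. DESeq2 1.42.0, other scalings, filters and each library left out in turn were alternatives. Scaling by total counts and leaving out both P3 libraries were added after seeing the data.

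The 9 genes and all lists were chosen with earlier results of these data known. Named were the 9 genes, the 3 called regulators with the largest fold change in each direction per comparison of a single gate, and the 5 genes most correlated with Cdk9, Ccnt1 and Hexim1. A named regulator and a cell type marker are not reported here. Positions come from GENCODE vM1 (NCBIM37, the same build as mm9), which holds 33643 of 35006 names. In a test on simulated data (P2 minus P4, 13199 genes), 81 of 200 genes changed 4-fold were called, and 1 unchanged gene. A count of 0 allows a share of up to 4.63e-05% to 7.89e-05% of counts (3 counts), for counting error only.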

Additional observations from a re-analysis of the deposited data

How the results depend on the processing

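Each population had 2 libraries, and where one of them is left out the lone library is assumed to vary like the other groups. Calls ended also where the library left out was of neither population compared, and the cause was not tested. Larp7 rests on 41 reads in each P2 library. The simulated test missed most genes changed 4-fold. It changed 200 genes, whereas 1962 genes were called in P2 minus P4 of the real libraries. Its share of misses therefore does not give that of the members. A member not called may still differ. Where a difference was not called, values within its printed interval were not detectable with these libraries.

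The 9 genes' calls moved as follows. Across the populations 2 were called, 1 with DESeq2's size factors, 1 without mitochondrial genes and 4 with DESeq2. With total counts the number was again 2, with Ccnk (0.00802) in place of Larp7 (0.0128), and in P2 minus P1 it was again 2, with Hexim1 (0.00961) in place of Ccnt2 (0.103). In P2 minus P4 0 were called, against 1 without the filter, 1 with DESeq2, 2 with total counts and 1 without both P3 libraries. In P1 minus P4 it was 1, against 2 without the filter, with DESeq2, without mitochondrial genes or without both P3 libraries, and 0 with total counts. In P2 minus P3 it was 1, against 2 with DESeq2 and 0 with total counts. In P2 minus P5 it was 1, against 2 with total counts or without both P3 libraries. In P1 minus P5 it was 1, against 2 without the filter or without both P3 libraries and 0 with total counts. In P2 minus the average it was 1, against 2 without the filter, 3 with DESeq2 and 2 with total counts. In the interaction it was 0, against 1 without the filter and 1 with DESeq2. Of all 13706 genes, DESeq2 called 7350 across the populations, 3192 in P2 minus P4 and 4528 in P1 minus P4. It called 4023 in P2 minus P3, 4638 in P2 minus the average and 2053 in the interaction. With total counts 3099 of all genes were called in P2 minus P1, 3159 in P2 minus P4, 2983 in P2 minus P5 and 3577 in P2 minus the average. At an adjusted p under 0.05 the counts were 4 across the populations, 4 in P2 minus P1, 1 in P2 minus P4, 3 in P1 minus P4, 2 in P3 minus P1, P2 minus P3 and P1 minus P5, 3 in P2 minus the average and 1 in the interaction. Of all 13706 genes tested, 7929 passed 0.05 across the populations, 6462 in P2 minus P1 and 3987 in P2 minus P4. It was 5777 in P1 minus P4, 4652 in P3 minus P1, 5114 in P2 minus P3 and 5385 in P1 minus P5. In P2 minus the average 5705 genes passed 0.05, and 2370 did in the interaction.

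The other elongation regulators called in P2 minus P4 were 4, against 8 without the filter, with DESeq2 or with total counts and 7 without both P3 libraries. With total counts they were 5 in P2 minus P1, P1 minus P4 and P3 minus P1. At 0.05 they were 27 across the populations, 16 in P2 minus P1, 10 in P2 minus P4, 23 in P1 minus P4 and 17 in P3 minus P1.

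With each library left out, the 9 genes' calls ran from 0 to 3 across the populations, from 0 to 2 in P2 minus P1, P1 minus P4, P3 minus P1, P1 minus P5 and P2 minus the average, and from 0 to 1 in P2 minus P4, P2 minus P3 and P2 minus P5. The regulators' calls ran from 7 to 16 across the populations, 2 to 12 in P2 minus P1, 0 to 7 in P2 minus P4, 0 to 15 in P1 minus P4 and 0 to 8 in P3 minus P1.

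The sign turned with total counts for Cdk9 (-0.36) and Supt5h (-0.20) in P2 minus P1, for Ccnt2 (-0.77), Hexim1 (-0.55) and Supt5h (-0.55) in P2 minus P4, for Larp7 (-0.32), Supt5h (-0.35) and Cdk13 (-0.25) in P1 minus P4, and for Supt5h in P2 minus the average (-0.13). Total counts shift all genes of a comparison nearly alike, so these turns are not separate results. Differences near 0 also turned. Leaving out a library took Cdk9 from -0.015 (without P1 replicate 1) to 0.18 in P2 minus P1 and from -0.13 to 0.032 (without P4 replicate 2) in P2 minus P4, and Ccnt1 from -0.16 to 0.084 (without P4 replicate 2) in P2 minus P4. Ccnt1 there was 0.011 with DESeq2's size factors and 0.010 with DESeq2. None of these differences was called in either form.

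Calls over all genes moved by more than 1.5 times, with 4971 against 4896 to 7931 over the other settings across the populations, 1962 against 1962 to 3500 in P2 minus P4, 3214 against 2123 to 5026 in P1 minus P4, 2132 against 1164 to 4005 in P3 minus P1, 2881 against 1688 to 4439 in P2 minus P3, 2177 against 2178 to 3727 in P2 minus P5, 2715 against 1334 to 4616 in P1 minus P5, 289 against 41 to 1726 in P3 minus the average, 111 against 58 to 2298 in the interaction, and 0 against at most 194, 302 and 539 in P5 minus P4, P3 minus P5 and P3 minus P4. With each library left out, these counts ran from 2657 to 6391 across the populations, 1576 to 5046 in P2 minus P1, 320 to 2763 in P2 minus P4, 0 to 4412 in P1 minus P4, 0 to 2126 in P3 minus P1, 1348 to 2605 in P2 minus P3, 539 to 2976 in P2 minus P5, 0 to 3931 in P1 minus P5, 1708 to 4458 in P2 minus the average and 39 to 253 in P3 minus the average, and were 0 in the interaction, so the shares of all genes called move with single libraries. In P2 minus P1 the 3989 calls (1905 higher and 2084 lower) became 839 higher and 2260 lower with total counts. The same change took 1097 higher and 865 lower to 296 and 2863 in P2 minus P4, 1920 and 1294 to 500 and 1623 in P1 minus P4, 1098 and 1034 to 103 and 1061 in P3 minus P1, 1199 and 978 to 360 and 2623 in P2 minus P5, 1537 and 1178 to 262 and 1072 in P1 minus P5, and 2239 and 1467 to 1090 and 2487 in P2 minus the average.

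The labels do not say that a replicate number marks a shared mouse or day. The correlation of same-numbered deviations was over 0.1 in 9 of 10 pairs of populations, up to 0.554 for P4 with P5, and -0.060 for P2 with P3. Not every pair reached 0.1, the rule set here, so the numbers were not taken to pair the libraries. The main fit therefore has no term for an effect shared by same-numbered libraries, although 9 of the 10 correlations were over 0.1. With the replicate block, 2 of the 9 genes were called in P1 minus P4, Ccnt2 (-1.18, adjusted p = 0.00905) beside Hexim1, and no other call of the 9 genes changed.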
